A study of Mus musculus with 32 samples.

Results

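The data describe how open chromatin changed in unperturbed mouse embryos between the late 1-cell and the early 2-cell stage. Its members are the 37907 ATAC-seq peaks in the lists of the 2 DMSO-treated groups, out of 58713 peaks in the 4 lists of the series. The late 1-cell list held 10214 peaks and the early 2-cell list held 27693, each called over 2 replicates. A peak that shared at least 1 bp with the list of the other stage was counted as kept, an early 2-cell peak with no overlap at late 1-cell as opened, and a late 1-cell peak with no overlap at early 2-cell as closed. A peak that is not listed fell short of the peak caller's threshold or was not reproducible between the 2 replicates of its stage. Opened and closed therefore describe the lists and not the total presence or absence of signal. Promoter peaks lay within 1 kb of any annotated start site, distal peaks lay over 2.5 kb from all of them, and those between were called near.

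The embryos of both stages were wild type, came from in vitro fertilization of B6D2F1/J oocytes with B6D2F1/J sperm, and were cultured in KSOM medium with DMSO. The mice were 6 to 8 weeks old. These groups are the vehicle controls for A-485, an inhibitor of CBP/p300 acetyltransferase activity that the other embryos received at 10 µM from 4 to 20 hours post insemination, so DMSO was present in all embryos described here. The labels give the stage and no time of collection. The embryos are hybrid, and the lists do not separate the parental alleles. RNA from DMSO-treated embryos at the zygote, the early 2-cell and the late 2-cell stage, measured in 2 libraries each, was used as an independent readout of the genes beside the peaks. Nothing in the labels says whether the 2 libraries of a stage came from separate collections of embryos, so their spread may be technical.

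ATAC-seq uses a transposase that cuts accessible DNA, and a peak is a stretch where such cuts pile up, usually over promoters, enhancers and sites held by DNA-binding proteins. After fertilization the embryo first lives on RNA stored in the oocyte. A small set of genes is transcribed in the late 1-cell and early 2-cell embryo, called minor zygotic genome activation, and a much larger set in the late 2-cell embryo, called major zygotic genome activation. Mouse DNA also holds many copies of the B1 element, a short interspersed repeat that spread by retrotransposition and whose sequence holds the internal promoter of RNA polymerase III.

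The number of reads behind each peak list is not given in the files, and the lists hold no values per replicate, so no peak could be tested against the spread between replicates. Intervals beside shares of peaks are 95% Wilson intervals and express counting error alone. The RNA libraries used held between 19215326 and 30123666 expected counts. In these RNA libraries the oocyte-secreted and zona genes summed to between 2427 and 2754 FPKM in zygotes, 2225 and 2278 FPKM in early 2-cell embryos, and 901 and 957 FPKM by late 2-cell. The 14 cumulus cell markers summed to between 6.25 and 8.43 FPKM in zygotes and 6.78 and 8.05 FPKM in early 2-cell embryos. By late 2-cell the sum was higher, between 11.1 and 16.3 FPKM. Amh and Inha were at 0 in each of the 6 libraries, so other markers made up these sums. Of the 14, 13 had no promoter peak at either stage and 1 had an opened one. Of the 12 sperm markers, 11 had no promoter peak, Prm1, Tnp2, Smcp and Crisp2 were at 0 in each library, and Prm2 accounted for most of the summed level of between 17.5 and 20.5 FPKM in zygotes. Fewer cells of a type and less RNA per cell cannot be told apart in such bulk samples.

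Most opened distal peaks held the same 8 bases near their summit, ATTAAAGG on either strand. The word was found after all 8-base words had been counted in these peaks. The lines below show the 48 bases around it in 5 of the opened distal peaks of the highest fold enrichment, on the strand that reads ATTAAAGG, from the GRCm38 reference genome (GRCm38.p6), with the 8 bases in capitals. They are shown because some share many of the flanking bases with the consensus below, while others share little beyond the 8 bases.
Mrln, chr10:70222363-70222410, minus strand: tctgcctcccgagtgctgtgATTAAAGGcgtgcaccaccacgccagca
Armc10, chr5:21653617-21653664, minus strand: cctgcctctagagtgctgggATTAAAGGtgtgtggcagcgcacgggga
Lrguk, chr6:34093301-34093348, plus strand: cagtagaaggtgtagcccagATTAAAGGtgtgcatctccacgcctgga
Gm49340, chr11:73336802-73336849, minus strand: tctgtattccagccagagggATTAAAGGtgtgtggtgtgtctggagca
Gm45389, chr8:52015823-52015870, minus strand: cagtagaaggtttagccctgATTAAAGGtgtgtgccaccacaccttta
The gene named on each line is the one with the nearest start site. Over the 12818 opened distal peaks with the site and its flanks aligned in this way, copies across the edge of the 300-base window included, the most frequent base at each of 90 positions is given next. Outside the 8 bases, that base was present in between 37.5% and 93.8% of the peaks, with a median over positions of 66.5%.
Most frequent base in opened distal peaks: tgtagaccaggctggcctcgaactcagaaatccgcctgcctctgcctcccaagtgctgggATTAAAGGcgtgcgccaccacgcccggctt
These letters are those of the 5' part of the B1 element read from its opposite strand, which is given as background, since no annotation of repeats was used here.

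Whole windows of 300 bases around the summit show the different surroundings of opened, kept and closed peaks. All are printed on the plus strand of GRCm38, none of them covers an annotated exon, and capitals mark ATTAAAGG or its complement in opened peaks and the GC box GGGCGG or its complement in kept and closed peaks. The first lies beside Dppa4, a chromatin factor of early embryos, and the second in an intron of Rarg, a retinoic acid receptor.
Opened, promoter, Dppa4, chr16:48283257-48283556: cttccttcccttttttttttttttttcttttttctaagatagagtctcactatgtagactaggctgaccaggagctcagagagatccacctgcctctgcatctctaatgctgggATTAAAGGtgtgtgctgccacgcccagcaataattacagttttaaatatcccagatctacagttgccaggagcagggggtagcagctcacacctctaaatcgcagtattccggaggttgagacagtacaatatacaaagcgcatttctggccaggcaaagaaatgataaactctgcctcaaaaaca
Opened, promoter, Rarg, chr15:102253590-102253889: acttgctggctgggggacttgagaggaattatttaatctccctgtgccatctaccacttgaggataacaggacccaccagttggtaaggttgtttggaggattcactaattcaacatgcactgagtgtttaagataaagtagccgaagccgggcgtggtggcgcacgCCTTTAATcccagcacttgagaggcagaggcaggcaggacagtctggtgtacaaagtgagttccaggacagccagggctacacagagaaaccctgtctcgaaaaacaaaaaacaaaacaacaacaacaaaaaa
Kept peaks at start sites look different. The window of Zfp622, which encodes a zinc finger protein of ribosome assembly, ends just before the annotated start of the gene. The window of Ficd, an enzyme of the endoplasmic reticulum that modifies the chaperone BiP, belongs to a peak listed at late 1-cell and not at early 2-cell, and so does the distal window on chromosome 1, the strongest closed distal peak.
Kept, promoter, Zfp622, chr15:25984045-25984344: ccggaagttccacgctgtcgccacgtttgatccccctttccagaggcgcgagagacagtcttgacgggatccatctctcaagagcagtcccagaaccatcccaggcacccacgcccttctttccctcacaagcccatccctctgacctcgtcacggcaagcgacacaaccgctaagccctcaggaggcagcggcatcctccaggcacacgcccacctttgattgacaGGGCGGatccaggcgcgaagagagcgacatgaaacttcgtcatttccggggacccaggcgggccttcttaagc
Closed, promoter, Ficd, chr5:113735485-113735784: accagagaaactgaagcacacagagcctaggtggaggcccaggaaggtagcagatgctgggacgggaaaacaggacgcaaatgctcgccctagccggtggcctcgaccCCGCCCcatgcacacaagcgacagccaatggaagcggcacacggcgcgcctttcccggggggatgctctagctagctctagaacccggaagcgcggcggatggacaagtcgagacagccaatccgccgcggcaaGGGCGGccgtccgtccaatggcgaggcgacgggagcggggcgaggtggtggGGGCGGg
Closed, distal, chr1:93115067-93115366: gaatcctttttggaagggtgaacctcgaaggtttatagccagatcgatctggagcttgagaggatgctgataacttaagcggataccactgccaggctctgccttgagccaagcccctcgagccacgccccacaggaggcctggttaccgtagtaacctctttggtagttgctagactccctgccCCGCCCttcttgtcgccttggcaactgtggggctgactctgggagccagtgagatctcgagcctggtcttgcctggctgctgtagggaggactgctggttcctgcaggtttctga

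Late 1-cell promoter peaks were listed again at early 2-cell more often than distal ones. Of the 10214 late 1-cell peaks, 4637 (45.4%, interval 44.4 to 46.4%) were kept and 5577 (54.6%, 53.6 to 55.6%) were closed. Late 1-cell promoter peaks were kept in 3757 of 5674 cases (66.2%, 65.0 to 67.4%). Late 1-cell distal peaks were kept in 771 of 4053 cases (19.0%, 17.8 to 20.3%). The early 2-cell list was largely made of opened peaks, with 23143 of 27693 (83.6%, 83.1 to 84.0%), and the other 4550 overlapped late 1-cell peaks. Opened peaks made up 15961 of 16719 early 2-cell distal peaks (95.5%) and 4342 of 8028 promoter peaks (54.1%). The kept share depended on how many peaks were compared. With the early 2-cell list limited to its 10214 strongest peaks it was 22.04%, and with the 5000 strongest of each list it was 20.5%. Promoter peaks were then kept in 32.4% and 28.4% of cases and distal peaks in 9.43% and 8.48%, so that most promoter peaks were kept only with the full lists.

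Stronger late 1-cell peaks were kept more often. When the list was divided into 3 equal parts by fold enrichment, 36.7% of the weakest, 40.6% of the middle and 58.9% of the strongest part were kept. At early 2-cell, 89.0% of the weakest part, 83.8% of the middle part and 77.8% of the strongest part were opened. Opened positions were rarely listed in the other late 1-cell group, since 713 of the 23143 opened peaks (3.08%, 2.87 to 3.31%) overlapped a peak of the late 1-cell A-485 list, which held 7094 peaks.

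Opened peaks mostly lay away from start sites. Among opened peaks, 15961 were distal (69.0%, 68.4 to 69.6%), 2840 were near (12.3%) and 4342 were promoter peaks (18.8%). Among closed peaks, 3282 were distal (58.8%), 378 were near (6.78%) and 1917 were promoter peaks (34.4%). The kept peaks reversed this order, with 3686 promoter peaks (81.01%), 106 near and 758 distal (16.7%) at early 2-cell. A start site lay within the peak itself for 76.8% of kept, 25.4% of closed and 9.41% of opened peaks. Between 2.5 and 10 kb from a start site the classes changed places, with 36.2% of opened, 21.9% of closed and 8.13% of kept peaks.

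**Figure D1:**
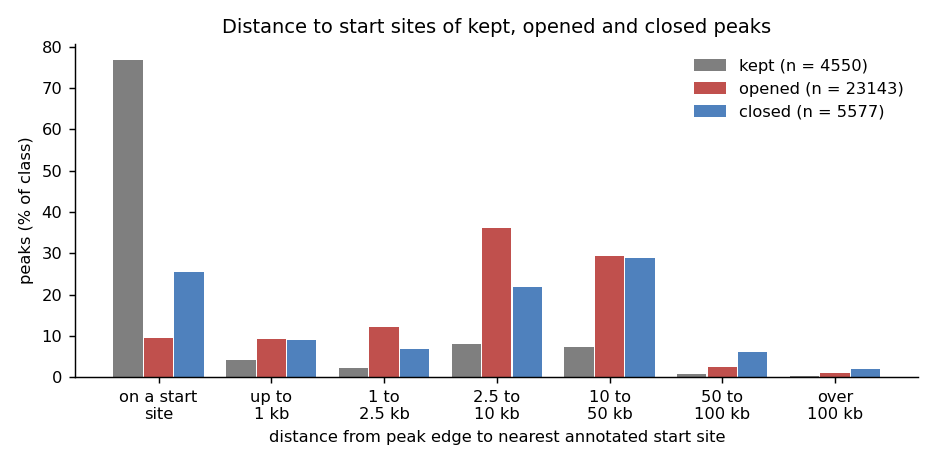
Share of kept (n = 4550, early 2-cell list), opened (n = 23143) and closed (n = 5577) peaks, in percent of each class, by the distance from the peak edge to the nearest annotated start site. Kept peaks stand at start sites (76.8%), opened peaks reach their highest bar at 2.5 to 10 kb (36.2%), and closed peaks are spread between both.

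Opened distal peaks had a median distance of 9452 bp to the nearest start site (quartiles 5342 and 17840 bp), against 13956.5 bp for closed distal peaks (6922.5 and 29746 bp) and 10284 bp for kept distal peaks. Introns held 52.7% of opened distal peaks and 34.6% of closed distal peaks, and 44.8% and 61.8% lay between genes. Over 100 kb from any start site, the shares were small, with 0.968% of opened and 2.03% of closed peaks. Opened distal peaks also lay close to each other. The median distance to the nearest other opened peak was 11088 bp, and 47.0% had one within 10 kb. Closed distal peaks had a median of 95429 bp to the nearest other closed peak, and 11.7% had one within 10 kb, but the opened class is also the larger one, which shortens such distances.

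The gene-rich chromosome 11 had the most opened peaks for its length, 17.6 per Mb, followed by chromosome 19 with 11.7 and chromosome 17 with 11.2. The X chromosome had 3.54 per Mb, and the Y chromosome held 2 opened peaks in all. Per late 1-cell peak, between 1.70 (chromosome 3) and 2.84 (chromosome 11) opened peaks were listed on the autosomes and the X chromosome. The genes with the most opened distal peaks nearest to their start sites were Rere, a nuclear receptor corepressor gene 340.3 kb long, with 15 peaks, and Btaf1 and Dtnb with 11 each. Spop, which encodes a substrate adaptor of a ubiquitin ligase, and Bcas3 had 10 each, the first among several genes with that number. In total 10093 genes were nearest to at least 1 opened distal peak, 6625 of them to a single peak and 254 to 5 or more.

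Kept promoter peaks were the widest in the early 2-cell list. The early 2-cell side of kept promoter peaks had a median fold enrichment, the caller's ratio of signal at the summit to local background, of 8.91 and a median width of 740 bp. Opened promoter peaks had a median fold enrichment of 7.30 and a width of 537.5 bp, and closed promoter peaks of 6.59 and 492 bp. Among distal peaks, the opened class had a median fold enrichment of 8.29 (quartiles 6.81 and 9.96) and a width of 443 bp, and the closed class of 6.70 and 359.5 bp. Opened and kept peaks come from one list and closed peaks from the other, and fold enrichment can move with the depth of a library, so the closed class cannot be ranked against the others by these values. Within the early 2-cell list, opened distal peaks lay below kept distal peaks (8.92) and above opened promoter peaks. Several summits were reported for 59.96% of kept promoter peaks and 34.6% of opened distal peaks. In all, opened peaks covered 11.5 Mb (0.435% of the sequenced genome), kept peaks 3.30 Mb (0.125%) and closed peaks 2.51 Mb (0.0948%).

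The same kept positions were mostly stronger and wider in the later list. Over 4637 late 1-cell peaks with a partner, the ratio of early 2-cell to late 1-cell fold enrichment had a median of 1.20 (quartiles 1.00 and 1.44) and was above 1 in 3467 (74.8%). The width ratio had a median of 1.15 (0.956 and 1.56), and 3155 peaks (68.0%) were wider. Distal pairs had a median fold enrichment ratio of 1.27 and promoter pairs of 1.19. The part of library depth in these ratios was not tested.

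Base composition separated the classes. Median GC content was 62.7% in kept, 59.3% in closed and 52.3% in opened promoter peaks, and 51.1% in closed and 47.7% in opened distal peaks. Windows spaced 100 kb apart over the genome had 41.3%. The ratio of observed to expected CpG was 0.79 in kept, 0.61 in closed and 0.38 in opened promoter peaks, and 0.23 and 0.21 in closed and opened distal peaks, so the kept promoters were those rich in CpG. Bases that the reference marks as repeats, in lower case, made up 6.28% of kept, 8.00% of closed and 30.1% of opened promoter peaks. In distal peaks they made up 26.5% of kept, 16.6% of closed and 51.9% of opened, beside 36.3% of the genome windows.

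**Figure D2:**
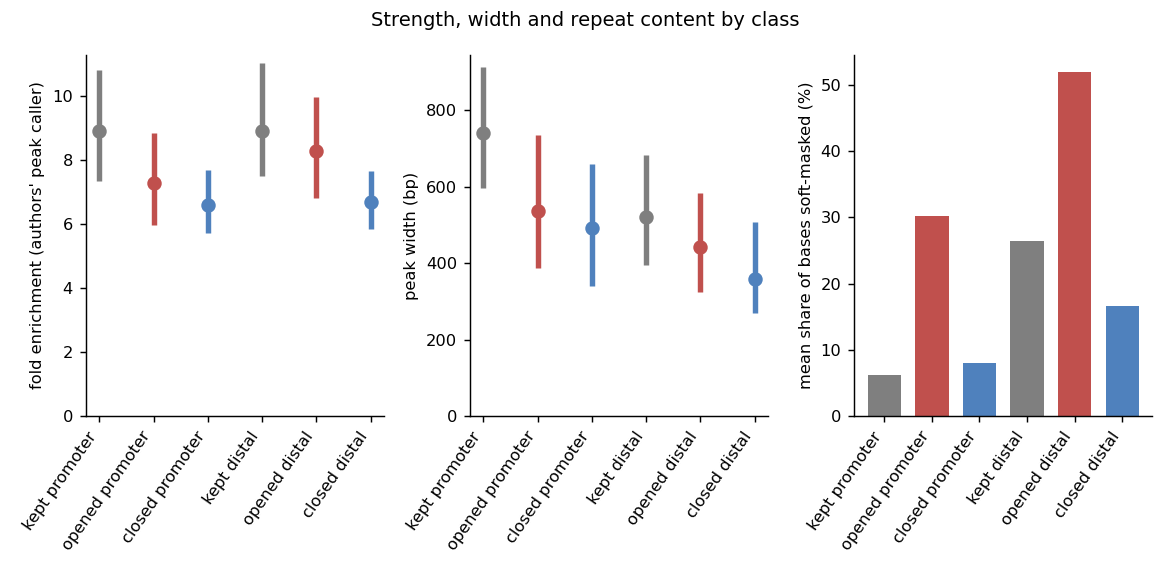
Median fold enrichment (left) and width in bp (middle) with bars from the first to the third quartile, and the mean percent of bases marked as repeats in the reference (right), for kept (early 2-cell list), opened and closed promoter and distal peaks. Kept promoter peaks are the widest (740 bp), and opened distal peaks hold the highest share of repeat bases (51.9%).

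The 8-base site printed above was a feature of opened chromatin. Within the 300 bases around the summit, ATTAAAGG was present on either strand in 12808 of 15961 opened distal peaks (80.2%, 79.6 to 80.9%) and in 81.1% of opened near peaks. Opened promoter peaks held it in 2006 of 4342 cases (46.2%, 44.7 to 47.7%). Kept distal peaks followed with 222 of 758 (29.3%, 26.2 to 32.6%). It was found in 100 of 3282 closed distal peaks (3.05%, 2.51 to 3.69%), close to the 871 of 26476 genome windows (3.29%, 3.08 to 3.51%). Kept and closed promoter peaks lay lower, with 2.50% and 0.469%. The other most frequent words of opened distal peaks overlapped the same stretch, with CTTTAATC in 76.8%, GGATTAAA in 71.3% and GGGATTAA in 64.7%. In kept and closed promoter peaks the most frequent word was CCCCGCCC, part of the GC box family, in 40.7% and 27.2% (0.891% of genome windows), and in closed distal peaks CCCCTCCC in 9.99% (3.34%).

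The site lay at the summit, where cutting is highest. Of 16224 copies within 300 bp of opened distal summits, 59.0% lay within 50 bp, against 22.8% of 202 copies around closed distal summits. In opened peaks and kept distal peaks, stronger peaks held it more often. From the weakest to the strongest of 3 equal parts by fold enrichment, its share was 74.7%, 80.1% and 85.9% in opened distal peaks, and 21.4%, 26.5% and 39.9% in kept distal peaks. In opened promoter peaks the shares were 41.9%, 42.2% and 54.4%. The other classes showed no such rise, with 3.38%, 3.47% and 2.29% in closed distal, 0.782%, 0.469% and 0.156% in closed promoter, and 2.77%, 2.03% and 2.69% in kept promoter peaks.

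**Figure D3:**
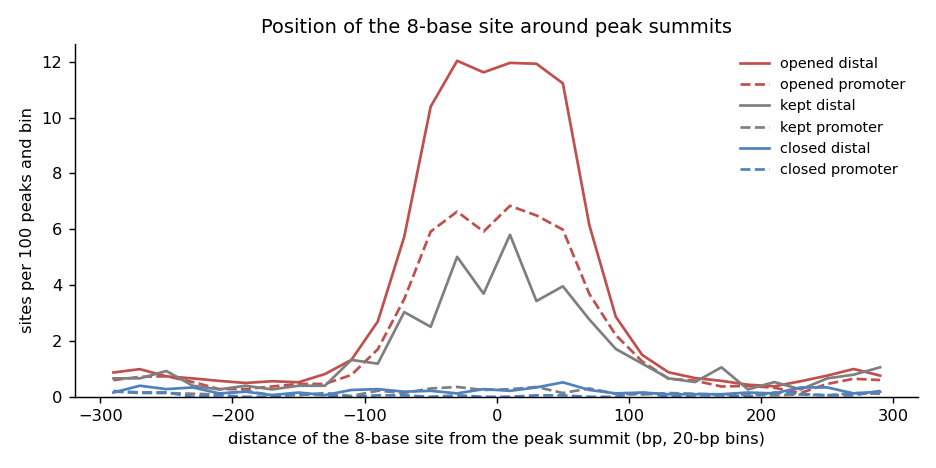
Number of copies of the 8-base site per 100 peaks in 20-bp bins by distance from the peak summit (bp), for kept (early 2-cell list, grey), opened (red) and closed (blue) distal (solid) and promoter (dashed) peaks. Opened distal peaks form a plateau of up to 12.04 copies per 100 peaks and bin around the summit, opened promoter peaks reach 6.84, kept distal peaks 5.80, and closed distal peaks stay at or below 0.518.

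Opened promoter peaks with and without the site differed in place and composition. The 2006 with it had a median GC content of 48.5%, a median distance of 431.5 bp from the start site, and 49.8% repeat bases. The 2336 without it had a median GC content of 61.1%, lay on the start site (median distance 0 bp) and had 13.3% repeat bases. Opened distal peaks with the site had 55.0% repeat bases and a median fold enrichment of 8.42, and the 3153 without it had 39.6% and 7.71. In opened promoter peaks the median fold enrichment was 7.52 with and 7.12 without the site. Kept distal peaks with the site had a median fold enrichment of 9.74 against 8.67 without it.

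Only a small part of the genome's copies lay in an open region. GRCm38 holds 306776 copies of ATTAAAGG, of which 22805 (7.43%) lay in opened, 759 (0.247%) in kept and 196 (0.0639%) in closed peaks. Of the 221002 copies in bases marked as repeats, 22204 (10.05%) lay in opened peaks. Among the 85774 copies outside such bases, 601 did (0.701%). To hold the flank constant, copies directly after the bases GTGCTGGG of the consensus were compared. There 11114 of 94209 copies with ATTAAAGG lay in opened peaks (11.8%, with a lower bound of 11.6%). The 23 variants with 1 base changed and at least 200 copies gave 1667 of 36277 copies (4.60%), with single variants between 1.23% and 13.9%. The other 66 words, which differed at 2 to 7 bases, gave 360 of 43078 copies (0.836%). The 2 commonest of them, AATTGAAC (6237 copies) and TTCTGATG (5034 copies), differ at 5 bases. This pooled share is therefore mostly that of other words after the flank, and is no measure of 2 changes in the site.

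The share also differed with the base that was changed. Positions are counted from 1 at the first A of ATTAAAGG, with the base of the site first and the base of the copy last. Pooled over the variants of a position, 2.44% of copies changed at position 7 and 2.68% of those changed at position 8 lay in opened peaks, against 8.25% at position 1. The shares at positions 2 to 6 were 4.00%, 6.54%, 6.40%, 5.15% and 4.05%. A1C copies lay in opened peaks in 13.9% of 397 cases (10.8 to 17.6%), A5G in 9.94% of 986, A4G in 8.21% of 1169 and T3C in 7.84% of 4377. T2C was at 4.79% of 3906, A5C at 3.68% of 3339, G8A at 2.86% of 4864, G7A at 2.57% of 3534 and G8T at 1.98%. Positions were not uniform, as T2A was at 1.23% of 891 and T3G at 1.69% of 767, with intervals that overlap those of changes at positions 7 and 8. Copies with other words in the same place served as a background: AATTGAAC, with 5 bases different, had 0.625% of 6237 copies in opened peaks. Reads that match many copies equally well can be placed or dropped in ways the methods do not state for this assay, and what that does to shares of repeat copies was not tested.

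Known binding motifs also differed in share between the classes. GGATTA, bound by OBOX and OTX homeodomain proteins, overlaps the 8-base site in GGGATTAAAGG-like stretches, so the counts are not independent. It was present in 77.6% of opened distal and 47.1% of opened promoter peaks, beside 35.4% of kept distal, 15.4% of closed distal and 11.8% of genome windows. Obox5, one gene of this family, measured 854.3 and 785.5 FPKM in the 2 zygote libraries, 1595 and 1535 FPKM in the next stage, and 207 and 210.4 FPKM by late 2-cell. A match is a description of letters and does not show that a factor was bound.

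The GC box GGGCGG, recognised by SP and KLF factors, was most frequent in kept promoters. It was present in 77.2% of kept, 53.4% of closed and 34.5% of opened promoter peaks, and in 23.2% of kept, 14.5% of closed and 6.81% of opened distal peaks (2.98% of genome windows). In promoter peaks this order was also that of median GC content (62.7%, 59.3% and 52.3%). Motif shares were not adjusted for base composition. CCAAT, the site of NFY, was found in 55.6% of kept, 40.3% of closed and 29.8% of opened promoter peaks, beside 40.4% of genome windows. The CTCF core AGGGGGC, part of the insulator protein's site, stood at 13.3% of kept, 9.81% of closed and 2.28% of opened distal peaks (2.49% of genome windows). The ETS motif CCGGAAG was in 1.04% of opened and 3.08% of closed distal peaks (0.789% of genome windows), and the NRF1 core TGCGCA in 1.16% and 4.27% (1.20%), so opened distal peaks lay near the genome share for both.

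Fixed words from nuclear receptor motifs were found in a small share of each class. Other forms of these motifs were not counted. The study reports RAR and Nr5a2 motifs as enriched in open regions that depended on CBP/p300, with another method and other sets of peaks. AAGGTCA, read by NR5A2 and ESRRB, was in 7.55% of opened distal, 6.49% of closed distal and 2.44% of kept promoter peaks, and in 5.54% of genome windows. GGTCANNGG, a fragment of retinoic acid receptor sites in which N is any base, was in 2.44% of opened distal, 4.48% of closed distal and 5.16% of closed promoter peaks, and in 3.10% of genome windows. The E-box CACCTG was at 33.5% of opened and 33.0% of closed distal peaks (17.1% of genome windows), whereas CACGTG, read by ARNT and MYC, was at 3.33% and 11.8% (2.90%). The GATA motif AGATAA was in 9.79% of opened distal, 15.1% of closed distal peaks and 19.4% of genome windows, and the octamer ATGCAAAT of POU factors in 0.921% of opened distal and 2.61% of genome windows. GATTNAATC, a fragment of the DUX site, was in 0.633% of opened distal peaks and 0.272% of genome windows.

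**Figure D4:**
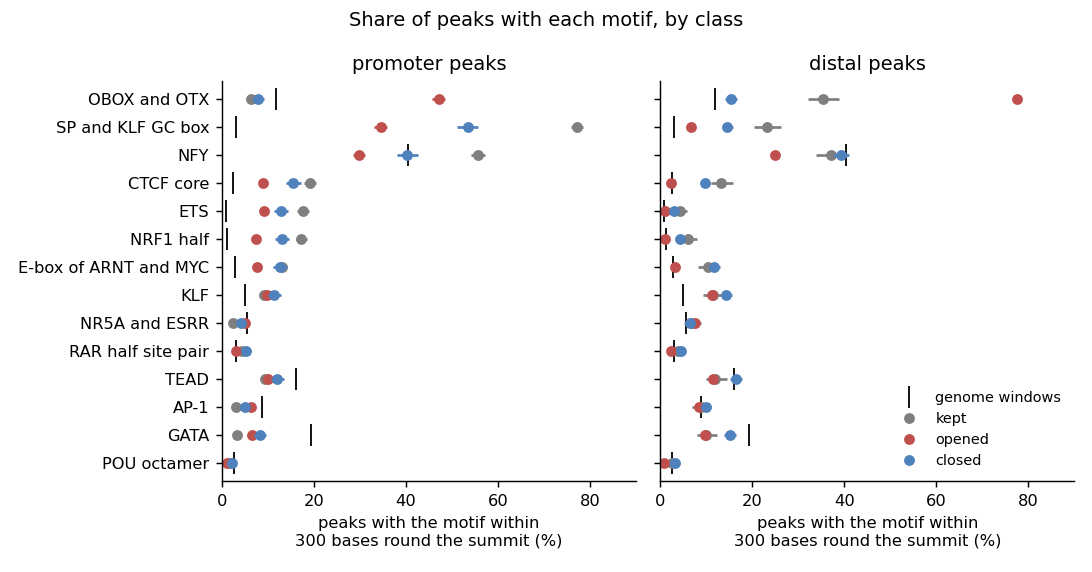
Percent of kept (grey, early 2-cell list), opened (red) and closed (blue) promoter (left) and distal (right) peaks with each motif on either strand within the 300 bases around the summit, with 95% Wilson intervals, and the share of genome windows (black ticks). The OBOX and OTX motif stands out in opened distal peaks (77.6%) and the GC box in kept promoter peaks (77.2%).

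The strongest peaks of each class were named by fold enrichment. Among opened distal peaks these included the peaks nearest to Mrln (26.5) and Fam107a (23.1, with no copy of the site near its summit). Opened promoter peaks were led by A530040E14Rik (25.9), Gm13231 (22.6) and Gm18122 (21.98). The strongest closed peaks, from the late 1-cell list, were the promoter peaks of Zfp81 (14.6), Phyhipl (13.9) and Ormdl1 (13.9) and the distal peaks at chr1:93115076-93115413 (15.1), chr15:60686517-60687141 (14.6) and chr10:82202282-82203257 (14.5).

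Kept peaks held the highest values of all and need a separate reading. The strongest kept distal peak, at chr2:69355469-69355735, had a fold enrichment of 65.4 at early 2-cell and 65.0 at late 1-cell, and 43.2% of its 25-base words also occur in the mitochondrial genome. The next, at chr10:96077484-96077949, had 56.3 and 51.7, and 41.9% of such words. The peak at chrX:143482940-143483180 had 56.1 and 57.5 with none of them. The leading kept promoter peaks were at Gm20594 (45.4 and 37.8, with 19.2% of such words), Gm11512 (31.1 and 19.8) and Gm43841 (30.7 and 11.5). In all, 17 of 4550 kept, 2 of 23143 opened and 0 of 5577 closed peaks had over 10% of words shared with the mitochondrial genome, among them 13 of the 37 kept peaks with a fold enrichment over 20 and 0 of the 21 such opened peaks. Whether reads from mitochondrial DNA were placed there was not tested.

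Most imprinting control regions had no listed peak. Regions were taken from the study's list, read as GRCm38. Of 17 maternal control regions, 1 (Impact) overlapped a peak at both stages and 2 overlapped one at early 2-cell only, Zrsr1 with a fold enrichment of 6.11 and Mcts2 with 6.08. The other 14, the 4 paternal regions and the listed promoter windows of 27 genes imprinted through H3K27me3 had none.

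Genes were then sorted by the peaks within 1 kb of any of their annotated start sites. Such a site need not be the main start of the gene. Of 21938 protein-coding genes, 18.8% had a kept peak and 61.6% had no peak. Of the same genes, 12.2% had only opened peaks, 6.67% only closed peaks, and 0.784% both opened and closed peaks without a kept one. Genes with kept peaks were the most expressed, with a median of 11.1 FPKM in zygotes and of 8.51 and 13.3 FPKM in early and late 2-cell embryos. Genes with opened peaks had medians of 6.57, 5.70 and 10.3 FPKM, and genes with closed peaks of 2.38, 1.95 and 1.64 FPKM. Genes without a peak had medians of 0.05, 0.1 and 0.08 FPKM, and 3802 of 13462 of them (28.2%) had at least 1 FPKM at early 2-cell.

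The RNA comparisons asked whether the genes beside opened and closed chromatin changed at about the same step or at the next one. The earlier RNA is labelled zygote and the earlier peak list late 1-cell, so the 2 steps may not start at the same time. Zygotes also hold RNA stored in the oocyte, and how far a fall reflects loss of that RNA was not tested. A gene was called when the quasi-likelihood test of edgeR gave an adjusted p under 0.05 over all genes tested, the change was at least 2-fold and its mean was at least 1 FPKM in either stage. From zygote to early 2-cell, 11.2% of 20106 genes rose and 14.9% fell. Genes with opened promoter peaks rose in 418 of 2848 cases (14.7%) and fell in 524 (18.4%). Genes with closed peaks rose in 109 of 1463 cases (7.45%) and fell in 297 (20.3%). With kept peaks, 577 of 4405 rose (13.1%) and 911 fell (20.7%). The median log2 fold change was 0.05 for opened, -0.19 for closed and -0.03 for kept, beside 0.08 for all genes. Among genes with at least 1 FPKM in either stage, 15.1% of kept, 18.2% of opened and 10.5% of closed genes rose, beside 16.9% of all such genes. Of the same genes 23.8%, 22.9% and 28.7% fell, beside 22.5%, so the excess of falls among opened genes was not seen among these genes.

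From early 2-cell to late 2-cell, the step of major genome activation, the classes lay further apart. Over 20326 genes, 15.9% rose and 8.92% fell. Genes with opened promoter peaks rose in 865 of 2944 cases (29.4%, 27.8 to 31.1%) and fell in 179 (6.08%), with a median log2 fold change of 0.50. Genes with kept peaks were close to them, as 1237 of 4440 rose (27.9%) and 338 fell (7.61%), with a median of 0.31. Genes with closed peaks rose in 142 of 1467 cases (9.68%) and fell in 179 (12.2%), with a median of -0.38, and genes without a peak rose in 961 of 11228 cases (8.56%) and fell in 1099 (9.79%), with a median of -0.25. The median over all genes was -0.02. Opened and kept genes also started from a higher level. Among genes with at least 1 FPKM at early 2-cell, 31.9% of opened, 30.0% of kept, 11.9% of closed and 11.4% of genes with no peak rose, beside 20.7% of all such genes. Opened promoters with and without the 8-base site gave nearly the same share, 295 of 1014 (29.1%) and 570 of 1930 (29.5%).

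**Figure D5:**
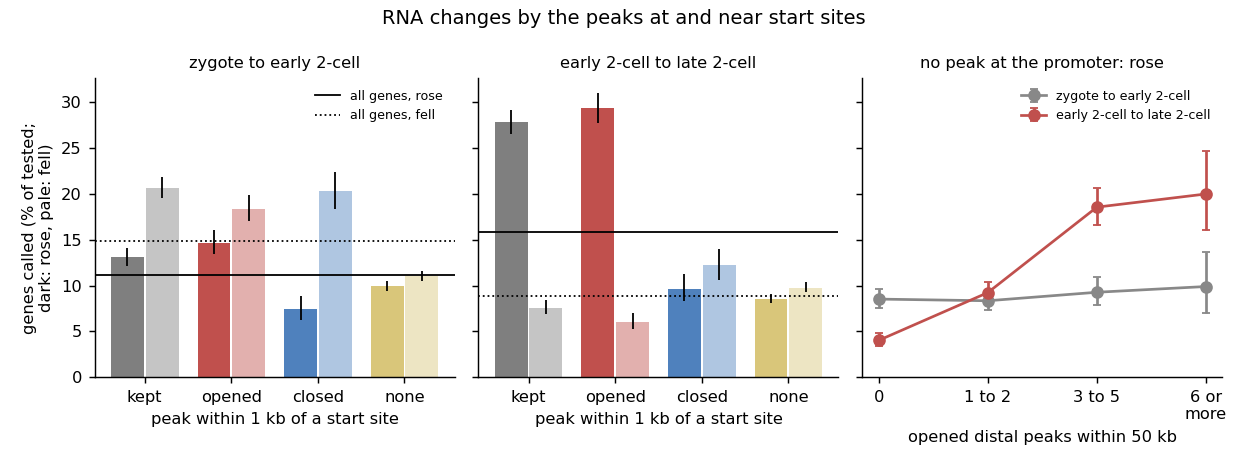
Percent of tested genes that rose (dark) or fell (pale) from zygote to early 2-cell (left) and from early 2-cell to late 2-cell (middle) by the class of the peak within 1 kb of a start site, with the shares over all genes as lines, and (right) the percent that rose among protein-coding genes with no promoter peak, by the number of opened distal peaks within 50 kb. Bars on points and columns are 95% Wilson intervals. In the second step 29.4% of genes with an opened peak and 9.68% of those with a closed peak rose, and the right panel climbs from 4.03% to 20.0%.

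The share of genes that rose in the later step went up with the number of opened distal peaks nearby. Among protein-coding genes without a promoter peak, the share that rose from early 2-cell to late 2-cell was 4.03% of 2879 genes with no opened distal peak within 50 kb of a start site. It was 9.24% of 2652 genes with 1 to 2, 18.6% of 1476 genes with 3 to 5, and 20.0% of 330 genes with 6 or more (66 genes). The shares that fell were 14.2%, 11.2%, 6.98% and 7.27%, and the median log2 fold changes were -0.65, -0.27, 0.19 and 0.34. From zygote to early 2-cell the shares that rose stayed between 8.35% and 9.90%. Closed distal peaks gave no such gradient, with 9.63% of genes without and 9.44% of genes with 1 to 2 of them rising in the later step. Genes with more opened peaks nearby were also more expressed at early 2-cell, with medians of 0.865, 1.13, 1.66 and 3.02 FPKM. Among those with at least 1 FPKM, the shares that rose were 5.25% with 0 peaks and 21.7% with 3 to 5, and the part of gene density was not tested.

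Individual genes show the range within each class. Among genes with opened promoter peaks, Fgf4, a growth factor of the inner cell mass, measured 0.33 and 0.08 FPKM at early 2-cell and 18.41 and 14.95 FPKM at late 2-cell. The 2 stages did not overlap, with a log2 fold change of 5.56 (SE 0.48, edgeR adjusted p 2.29e-06), and its opened peak had a fold enrichment of 8.37. Tmem191c (log2 fold change 7.13) and Exosc6, a subunit of the RNA exosome (5.35), rose as well. Exosc6 had 0 and 0.74 FPKM at early 2-cell, and its call was lost with DESeq2 (adjusted p 0.0523). Zfp383, a zinc finger gene, fell from 12.4 and 12.94 to 1.66 and 1.87 FPKM (-2.91), and Fmc1, an assembly factor of ATP synthase, fell too (-2.98). Duxbl3 had 5.68 and 31.01 FPKM in early and 4.85 and 4.53 FPKM in late 2-cell embryos. Its 2 early libraries differ widely, it has near-identical copies, and without the higher of them its log2 fold change was -0.79 (edgeR adjusted p 0.191).

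At the earlier step, Gm9125 and Gm4858 went from 0 in both zygote libraries to 44.82 and 62.24 FPKM and to 37.34 and 39.28 FPKM at early 2-cell. Their opened promoter peaks had fold enrichments of 12.7 and 10.8, and both held the 8-base site. Trim43a, of a family of ubiquitin ligase-like genes active in 2-cell embryos, went from 0 to 12.55 and 9.39 FPKM. Whether Gm9125, Gm4858 and Trim43a share reads with near-identical copies was not tested. An opened promoter did not always go with more RNA from zygote to early 2-cell. Taf1b, a factor of RNA polymerase I, fell from 37.49 and 35.84 to 3.29 and 4.35 FPKM (log2 fold change -3.93, SE 0.17), and Smim8 fell by 3.88 on the log2 scale. Gm42742 measured 12.89 and 8.8 FPKM in zygotes and 0 in both early 2-cell libraries. Its late 2-cell libraries differed widely, at 7.97 and 0.01 FPKM. The window of its peak holds exon bases of Gm42742, Pagr1a and Pagr1b on the same strand, and lies away from the 5' end of Gm42742. How reads were divided among these genes was not tested.

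Genes with kept promoters moved in both directions. Zfp622, whose window is printed above, measured 0.06 and 0 FPKM in zygotes and 39.88 and 31.99 FPKM at early 2-cell, while its peak had a fold enrichment of 6.91 at late 1-cell and 9.39 at early 2-cell. Gm21762 (0 and 0 to 60.23 and 59.46 FPKM) and Gm2016 (0.04 and 0 to 77.63 and 68.3 FPKM) likewise had promoter peaks listed at both stages. Reads shared with near-identical copies were not examined for Gm21762 and Gm2016. Bms1, a GTPase of ribosome assembly, fell from 332.3 and 377.2 to 13.39 and 13.68 FPKM (log2 fold change -4.62, SE 0.09, edgeR adjusted p 3.13e-12) under a kept peak, as did Fam50a (-4.43) and the Mediator subunit Med17 (-3.91). In the later step Rpl10l, a copy of a ribosomal protein gene, rose from 3.26 and 4.19 to 155.8 and 113.2 FPKM (5.17, SE 0.23), with Pheta1 (7.18) and Gpn3 (5.02). Psmb3, a proteasome subunit, fell from 29.76 and 33.87 to 4.22 and 2.39 FPKM (-3.27), with Sertad3 (-2.96) and Myl12b (-2.96).

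Closed promoters included genes that rose strongly. Ficd measured 0.3 and 0.07 FPKM in zygotes and 41.76 and 36.26 FPKM at early 2-cell (log2 fold change 7.77, SE 0.29, edgeR adjusted p 2.44e-10), although its promoter peak was listed at late 1-cell only. Zfp707 (4.54) and Ddit4l (4.21), an inhibitor of mTOR signalling, rose with it. In the later step Gtpbp3, an enzyme of mitochondrial tRNA modification, rose from 0.72 and 0.91 to 36.67 and 37.01 FPKM (5.07, SE 0.28), followed by the zinc transporter Slc39a4 (4.65) and Klhl7 (4.30). Falls were led at the earlier step by Sdhd, a subunit of succinate dehydrogenase, from 36.78 and 34.85 to 1.75 and 1.63 FPKM (-4.31), Cox17 (-3.96) and Rnaset2b (-3.79). The FPKM of Cox17, 79.25 and 73.77 in zygotes and 15.75 and 27.96 at early 2-cell, fell by less than its counts. Dph6 fell later, from 123.7 and 137.9 to 10.56 and 11.16 FPKM (-3.45, SE 0.19), as did Rtl8a (-3.12) and Vta1 (-2.65). The windows of the closed peaks of Slc39a4, Ddit4l and Rnaset2b lay inside the gene and away from its 5' end. That of Slc39a4 was near the 3' end. These peaks lie by other annotated start sites and do not describe the promoter at the 5' end.

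Regulators of genome activation mostly had a peak within 1 kb of an annotated start site at early 2-cell. Over all protein-coding genes, 18.8% were kept and 12.2% opened. Of 26 such genes, 8 were kept, 11 opened, 1 (Nfyc) opened and closed, 2 closed (Prdm14 and Tead4) and 4 had no peak, among them Esrrb, Rad21 and Dppa2. From zygote to early 2-cell 5 of the 26 rose and 2 fell, where 11.2% of all genes rose and 14.9% fell. From early 2-cell to late 2-cell 12 rose and the other 14 were not called, where 15.9% of all genes rose. Of the 11 opened ones, 6 rose, namely Kdm5b, Nr5a2, Klf4, Ep300, Rarg and Dppa4. The opened peaks of Nr5a2, Ctcf, Rara, Rarg, Crebbp, Dppa4 and Nfyc held the 8-base site, as did 46.2% of all opened promoter peaks. The windows of Nr5a2, Ctcf, Rarg and Crebbp lay inside the gene and covered no exon base. Their distance from the main start of the gene was not examined.

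Dppa4 measured 14.38 and 17.38 FPKM in zygotes, 36.13 and 31.43 in early and 199.7 and 177.8 in late 2-cell embryos (log2 fold change of the later step 2.58, SE 0.17, edgeR adjusted p 2.49e-07). Rarg rose at each step, from 0.34 and 1.0 to 4.79 and 5.36 and then to 15.91 and 17.1 FPKM (1.98, SE 0.18). The windows of both are printed above. Nr5a2, an orphan nuclear receptor of preimplantation embryos, had 42.24 and 47.1 FPKM in zygotes, 38.88 and 29.39 in early and 73.61 and 78.6 in late 2-cell embryos (1.20, SE 0.15), under an opened peak of fold enrichment 4.33. Kdm5b, an eraser of H3K4 methylation, went from 0.55 and 0.57 to 30.19 and 20.86 and to 130.1 and 123.4 FPKM. Each of these 4 was highest at late 2-cell. Klf5, which acts in the first lineages, had a kept promoter (fold enrichment 9.93 and then 13.9) and went from 0.32 and 0.29 to 11.79 and 13.61 and to 30.83 and 36.94 FPKM. Tead4, a trophectoderm factor, rose from 0.47 and 0.63 to 7.43 and 11.31 FPKM in the later step (3.70), with a promoter peak at late 1-cell only. Ctcf, with an opened peak of fold enrichment 9.88, measured 73.62 and 73.58 FPKM in early and 83.87 and 88.41 FPKM in late 2-cell embryos and was not called, and neither was Crebbp, with 298.2 and 315.1 and then 231.9 and 195.9 FPKM.

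Genes of protein and RNA production carried kept or opened promoters. Among all protein-coding genes, 18.8% were kept and 12.2% opened. Of 40 ribosome biogenesis genes, 25 were kept, 9 opened, 0 closed and 6 had no peak. From zygote to early 2-cell 17 fell and 6 rose, where 14.9% of all genes fell and 11.2% rose. The 6 that rose are near that share. Of the 40, 35 rose from early 2-cell to late 2-cell with a median log2 fold change of 2.20, where 15.9% of all genes rose. Of the 9 opened ones 8 rose. Mybbp1a, a nucleolar coregulator, went from 7.12 and 8.63 to 118.3 and 122.9 FPKM (3.92, SE 0.19, edgeR adjusted p 4.97e-08), and Gnl3, which encodes nucleostemin, from 18.86 and 18.05 to 125.7 and 108.7 FPKM (2.61). Gar1, a protein of snoRNA particles, had a log2 fold change of 0.83, below the 2-fold limit. Among the 90 ribosomal protein genes, many of which share reads with pseudogene copies, 37 were kept, 27 opened, 2 closed and 24 without a peak, and 76 of 89 tested rose (median 1.94).

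Other housekeeping complexes had other mixtures of promoter classes and RNA courses. The 44 proteasome genes divided into 18 kept, 9 opened, 1 opened and closed, 2 closed and 14 without a peak. Of 39 tested, 23 fell from zygote to early 2-cell, and of 38 tested, 17 rose and 6 fell in the later step. Over all genes, 14.9% fell at the earlier step, and 15.9% rose and 8.92% fell at the later one. The 34 spliceosome genes had 13 kept and 14 opened promoters, and 14 rose and 4 fell in the later step. The 4 that fell are near the share over all genes. Replication licensing genes, which load the helicase before S phase, were kept in 18 of 21 cases, with 12 falling at the earlier step and 9 rising and 1 falling at the later one.

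Genes of the oocyte and of later development are set here beside the 61.6% of all protein-coding genes that had no promoter peak. Over all genes tested, 14.9% fell at the earlier and 8.92% at the later step. Of 19 maternal effect genes, 11 had none, near that share, 3 were kept, 3 opened and 2 closed, and 10 fell from zygote to early 2-cell and 9 in the later step. Of 16 oocyte-secreted and zona genes, 12 had none, and 8 fell at the earlier and 4 at the later step. Hox genes lacked a peak in 36 of 39 cases, with Hoxa7 opened and Hoxd1 closed among the others. Regulators of later development lacked one in 53 of 61 cases. The others were kept in 4 cases, among them Neurog2, Tbx20 and Pax9, or closed (Pax5, Nkx6-1, Irx1 and Irx2). Of the 1907 Polycomb target genes in the study's list, 1828 had no peak. The study chose these genes for lacking RNA in preimplantation embryos and for H3K27me3 at their promoters in the inner cell mass. Genes without a peak were the least expressed class, so this count is not independent of that choice.

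Genes known for high expression at the 2-cell stage were divided. Of 104 genes in multicopy 2-cell families, 90 had no promoter peak, 4 were kept, 9 opened and 1 closed. Over all annotated genes 80.3% had no peak, and over protein-coding genes 61.6%. Near-identical copies can share reads in both assays. The handling of such reads is not given for ATAC-seq, so a missing peak here may not mean a closed promoter. Of the 67 tested, 49 rose from zygote to early 2-cell, where 11.2% of all genes rose. The opened ones included Tdpoz1 (fold enrichment 14.4), Pramel4 (11.6), Obox8 (9.24) and Obox4-ps35 (8.34). In another list of 11 genes of this stage, Zfp352 had an opened promoter peak with the 8-base site (fold enrichment 16.9). Its RNA went from 0.83 and 1.07 FPKM in zygotes to 121.6 and 112.4 at early 2-cell (log2 fold change 7.01, edgeR adjusted p 3.13e-12). At late 2-cell it measured 60.15 and 59.99 FPKM. Tcstv3 (fold enrichment 7.74, with the site) went from 9.01 and 5.88 to 63.73 and 58.54 and then 92.37 and 73.39 FPKM. Whether Zfp352 and Tcstv3 share reads with copies was not tested.

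Of 15 pluripotency and first-lineage genes, Sall4 was kept, Tfap2c, Sox2, Tbx3 and Cdx2 were opened, Gata3 and Tead4 were closed and 8 had no peak. Sox2 rose from 1.69 and 1.07 to 8.2 and 7.6 FPKM (log2 fold change 2.61) and then fell to 1.96 and 2.83 FPKM (-1.74). Of the 557 early 2-cell minor activation genes with an identifier in the files, 108 had a kept peak, 101 an opened one, 4 an opened and a closed one, 20 a closed one and 324 none. The study chose this list by its response to a transcription inhibitor against DMSO-treated early 2-cell embryos, which may include these libraries, so the 486 of 557 that rose from zygote to early 2-cell are not independent evidence of its direction. Of the 30 zygote minor activation genes, 22 had no promoter peak. Over all protein-coding genes 61.6% had none, and the 324 of 557 are near that share.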

How the data were processed

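ATAC-seq and total RNA-seq of DMSO-treated embryos were used. For ATAC-seq, the authors used version 2.1.2 of the ENCODE pipeline and deposited 1 list of reproducible peaks per stage over 2 replicates, with a score for reproducibility, the fold enrichment (ratio to local background) at the summit, and the p and q of the peak caller as −log10 values. The genome build and the handling of reads with many matches are not given for this assay in the sources used here. Processing notes name GRCm38, and all 37907 peaks lay within its chromosomes. For RNA-seq, the authors trimmed reads with Trimmomatic 0.39, mapped them with STAR 2.7.8a and deposited an expected count and an FPKM per gene and library from RSEM 1.3.1.

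Lines of the same position (16283 and 42382) were joined into 10214 and 27693 peaks. Distances were taken to 132721 start sites of GENCODE M21, to which 55107 of 55385 gene identifiers matched. Genes took the class kept before opened or closed. Sequences came from RefSeq GRCm38.p6. Peaks have no values per replicate, so no test was run on them. Expected counts were rounded and tested with the quasi-likelihood test of edgeR 4.0.16 (R 4.3.3, limma 3.58.1) with TMM scaling, over genes with at least 10 counts summed, 4 libraries a comparison, and Benjamini-Hochberg adjustment. The depth of 19215326 to 30123666 counts limited precision less than the number of libraries, since counts of replicates varied more than counting alone gives (chi-square per degree of freedom 11.6 to 19.6). Scripts were tested on simulated data.

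Genes named are members of the gene lists and, per class, step and direction, the 3 protein-coding called genes of the largest change with at least 10 FPKM in the higher stage and no overlap between libraries, the 3 strongest peaks per class and place, and the 5 genes with the most opened distal peaks. The members and lists were chosen with earlier results of these data known, and the 8-base site after its counts were seen. A-485 and TSA libraries and the CUT&RUN samples were not used here, other than the late 1-cell A-485 list and the control libraries of the TSA experiment as an alternative. A few items that the rule on names gives are not reported here.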

Additional observations from a re-analysis of the deposited data

How the results depend on the processing

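Of 199 values under an alternative, shares of peaks and counts of called genes together, 182 stayed within their interval or 1.5 times and 17, all shares of peaks, moved further. The kept share (45.4%) became 46.7% when peaks within 500 bp counted as shared, 20.5% with the 5000 strongest peaks of each list, 22.04% with lists of equal number and 50.02% when lines were not joined, and the opened share (83.6%) became 82.8%, 79.6%, 78.4% and 80.4%. With start sites of protein-coding genes only, the distal share was 75.5% of opened, 65.9% of closed and 21.2% of kept peaks. Distances from the peak centre gave 70.5% for opened peaks, and lists of equal number gave 77.8% for opened and 46.1% for closed peaks. The share of opened distal peaks with the site (80.2%) was 85.3% with lists of equal number, 72.8% without peaks mostly made of repeat bases and 84.99% over the whole peak. The cause was not tested, except that fewer peaks leave fewer overlaps. Overlap of most of a peak, the summit within the other peak and a q of 0.001 moved no share further than this.

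All counts of called genes stayed within 1.5 times their value with DESeq2 1.42.0, its size factors, total counts, no low-count filter, no FPKM limit or the control libraries of the TSA experiment. Leaving out 1 library gave 2041 to 2309 rising and 2737 to 3120 falling genes at the earlier step and 3085 to 3221 and 1649 to 1829 at the later one. For the pairing by replicate number, deviations correlated at -0.049 and 0.034, so the samples share only a number, and with the number as a block 2237 rose and 3054 fell at the earlier and 3320 rose and 1908 fell at the later step (opened 417, 536, 880 and 186). Of 342 values of the 36 genes named by the rule, 339 kept their side of the threshold, none reversed, and 3 were lost: Exosc6 (adjusted p 0.0523) and Duxbl3 (0.0574) with DESeq2, and Duxbl3 without the second early 2-cell library (edgeR adjusted p 0.191). Depth of the peak lists is unknown and limits every share of opened and closed peaks.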
